A study of Citrus sinensis with 48 samples.

Results

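Abscisic acid (ABA) signalling genes were followed in citrus leaves under water stress, high light, heat and their combinations. The members were the 88 genes, of 30136 in the deposited table, whose RefSeq product name read abscisic acid receptor, protein phosphatase 2C (PP2C), serine/threonine-protein kinase SRK2 or SAPK, or abscisic acid-insensitive 5. They comprised 8 receptors, 65 PP2C genes, 8 kinases of the SnRK2 family (SRK2 and SAPK are its Arabidopsis and rice names) and 7 bZIP transcription factors of the ABI5 type. Membership rests on the product name alone. The PP2C genes were divided by the number in that name: 9 carry a number of the Arabidopsis group A, the clade that binds the receptors, and 56 carry another. Because rice numbers are also used in RefSeq names, and no protein sequence was compared here, a group A gene may stand among the 56. For the same reason a gene of another clade may stand among the 9.

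The 2 genotypes studied are both used as rootstocks in citrus growing: Carrizo citrange (Carrizo, a hybrid of sweet orange and Poncirus trifoliata) and Cleopatra mandarin (Cleopatra). Plants of each were left as controls (CT) or exposed to water stress (WS), to high light (HL) or to heat (HS), to each pair of these (WS+HL, WS+HS, HL+HS) or all of them (WS+HL+HS), which gives 16 groups of 3 biological replicates and 48 leaf libraries. The labels name no transgene or mutation, and no light intensity, temperature, stress duration or plant age was found in them. Nor do the labels say whether replicates are single plants or pools, so p-values measure the spread between these samples.

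In plants, ABA is the hormone that closes stomata and switches on protective genes when water runs short. The PYR/PYL receptors bind ABA and then hold group A PP2C phosphatases inactive. These phosphatases otherwise keep the SnRK2 kinases of this pathway dephosphorylated and silent. The hormone thus releases those kinases, which phosphorylate guard cell channels and the ABI5 and ABF type bZIP factors. In Arabidopsis the genes of many group A phosphatases are themselves induced by ABA, which gives the pathway a brake. Most other PP2C clades act outside this core.

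The libraries held 40294831 to 58392998 counted reads, and each of the 48 correlated best with a library of its own group (lowest r within a group 0.979). Levels of 1 gene across libraries are given as CPM, read counts scaled to TMM-normalised library sizes, and levels are compared between genes only as TPM, the authors' values scaled by gene length. Changes are log2 fold changes ± SE from edgeR's quasi-likelihood test, and a gene is said to have risen or fallen only where its Benjamini-Hochberg adjusted p over 23721 genes was below 0.05. The column names of 11 libraries carry an extra mark, bis, whose meaning no source used here states. Of the 88 members, 86 passed the low-count filter. The other two, SRK2A-like (LOC107175354) and a PP2C 32 (LOC112498175), had 0 counts in all 48 libraries. Levels of 17 mesophyll genes (small subunits of Rubisco and chlorophyll a-b binding proteins) were read without a threshold, so leaf identity was not tested. None of the 17 was at 0 throughout. Their summed CPM was 23374 to 31886 in CT of Carrizo and 33292 to 43846 in CT of Cleopatra.

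Without stress, the most abundant members per length were not group A phosphatases. In CT of Carrizo a PP2C 60 (LOC102623909), named here after its values were seen, led with 250.1 ± 17.9 TPM (SD, n = 3), followed by PP2C 57 with 212 ± 6.41 and PP2C 59 with 194 ± 6.03. In CT of Cleopatra the kinase SAPK2 (LOC102623202) led with 281 ± 33.6 TPM. Among group A, PP2C 16, the number of HAB1 in Arabidopsis, was the highest in CT of Carrizo with 165 ± 16.7 TPM. Summed over each role, CT of Carrizo held 242 ± 10.1 TPM of receptors, 349 ± 25.9 of group A phosphatases, 540.4 ± 57.3 of SnRK2 kinases and 197 ± 26 of bZIP factors. CT of Cleopatra held 215 ± 6.22, 297 ± 45, 568 ± 41.6 and 128 ± 27.4 TPM in the same order.

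Every one of the 86 members rose or fell in at least 1 of the 14 comparisons of a stress with CT: 73 rose somewhere, 69 fell somewhere and 56 did both. Of all 23721 genes tested, 97.2% passed in at least 1 of the 14, 77% rose somewhere, 76.8% fell somewhere and 56.6% did both. Each count is read against the share of all 23721 genes tested that rose, fell or did either. Under WS in Carrizo 49 of the 86 rose and 23 fell; of all genes 29.5% rose and 35.3% fell, 64.9% in all. In Cleopatra 48 of the 86 rose and 16 fell; of all genes 31.2% rose and 33.4% fell, 64.7% in all. Under HL in Carrizo 16 of the 86 rose and 14 fell; of all genes 9.69% rose and 8.77% fell, 18.5% in all. With only the libraries of its 2 groups in the fit, 4 members rose and 1 fell there. The share of all genes in that smaller fit is not given here. In Cleopatra under HL 18 of the 86 rose and 23 fell; of all genes 17.7% rose and 18% fell, 35.7% in all. Under HS in Carrizo 29 of the 86 rose and 36 fell; of all genes 32.3% rose and 26.3% fell, 58.6% in all. Under HS in Cleopatra 16 of the 86 rose and 34 fell; of all genes 27.1% rose and 27.4% fell, 54.5% in all.

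With WS+HL in Carrizo 44 of the 86 rose and 25 fell; of all genes 28.8% rose and 33.2% fell, 62.1% in all. In Cleopatra under WS+HL 42 of the 86 rose and 20 fell; of all genes 31.2% rose and 33.7% fell, 64.9% in all. With WS+HS in Carrizo 40 of the 86 rose and 24 fell; of all genes 31.9% rose and 35% fell, 66.9% in all. In Cleopatra under WS+HS 37 of the 86 rose and 26 fell; of all genes 32.2% rose and 32% fell, 64.3% in all. With HL+HS in Carrizo 33 of the 86 rose and 32 fell; of all genes 29.5% rose and 31.4% fell, 60.9% in all. In Cleopatra under HL+HS 41 of the 86 rose and 28 fell; of all genes 35.5% rose and 31.5% fell, 67.1% in all. With all 3 stresses in Carrizo 43 of the 86 rose and 28 fell; of all genes 32.5% rose and 38.7% fell, 71.2% in all. In Cleopatra under WS+HL+HS 39 of the 86 rose and 29 fell; of all genes 37.5% rose and 35.1% fell, 72.5% in all. Members passed more often than all genes in each of these 14 comparisons, by 3.64 to 18.8 percentage points. Their median level was also higher, with a mean log2 CPM of 5.12 against 3.50 over all genes tested, and the part of that in the share was not tested. The map of log2 fold changes shows 31 members by role, without the other PP2C genes. Which of the SnRK2 kinases ABA acts on was not tested here.

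**Figure D1:**
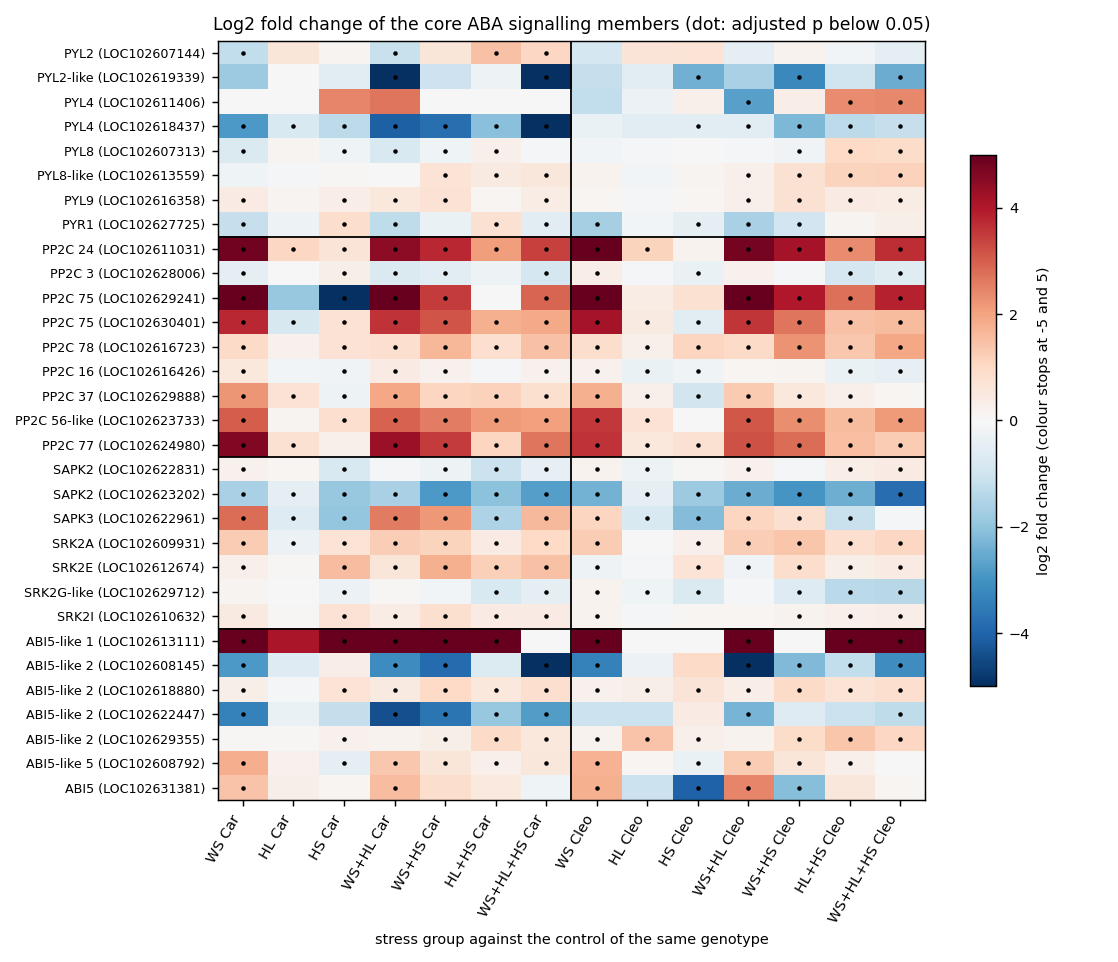
Log2 fold change of each stress group against CT of the same genotype for 31 members (rows, by role) in the 14 comparisons (columns), with a dot where the adjusted p was below 0.05. Of the 8 columns with water stress, PP2C 3 rose in 1, PP2C 16 in 5, PP2C 37 in 7 and the other group A genes in all 8. The SAPK2 (LOC102623202) row is blue in all 14. Colours of genes at or near 0 counts (ABI5-like 1, PYL2-like, PYL4 LOC102611406) depend on the prior count of the fit.

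Of the 8 receptors, 1 rose and 4 fell under WS in Carrizo, where 29.5% of all genes rose and 35.3% fell. In Cleopatra 0 rose and 1 fell, beside 31.2% and 33.4%. Carrizo and Cleopatra shared 1 falling receptor under WS, PYR1, while PYL4 fell steeply in Carrizo. PYL4 (LOC102618437) stood at 6.94, 10.2 and 10.2 CPM in CT of Carrizo and at 1.12, 1.35 and 1.29 under WS. It was lowest with all 3 stresses, at 0.0504, 0.464 and 0.148 CPM. In Carrizo all 12 libraries with water stress lay below all 12 without it. The change was -2.86 ± 0.25 under WS (adjusted p = 4.3e-13) and -5.35 ± 0.31 under WS+HL+HS. In Cleopatra the same gene stood at 11.3, 10.9 and 11 CPM in CT, 9.06, 9.48 and 7.56 under WS and 2.04, 2.3 and 2.62 under WS+HS. Its change was -0.35 ± 0.22 under WS in Cleopatra, which did not pass (adjusted p = 0.171), and -2.25 ± 0.24 under WS+HS, which did. Leaves that hold fewer cells of a type cannot be told apart here from leaves with less of an RNA per cell.

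PYR1 (LOC102627725) went from 7.84, 7.49 and 9.83 CPM in CT to 2.53, 2.97 and 2.37 under WS in Cleopatra (-1.68 ± 0.21), and from 2.82, 1.8 and 2.85 to 1.15, 0.957 and 1.29 in Carrizo (-1.14 ± 0.23, and -0.66 over the libraries without the bis mark). Under HS its changes had opposite signs, 0.89 ± 0.21 in Carrizo and -0.47 ± 0.20 in Cleopatra, both past the threshold; the second call was lost without any 1 of CT replicates 1 and 3 and HS replicates 1, 2 and 3 (-0.52 to -0.34). PYL8, a receptor of the clade that binds ABA as a monomer in Arabidopsis, was at 39.5, 38.6 and 40.4 CPM in CT of Cleopatra and at 81.2, 78.8 and 73.3 under HL+HS (0.98 ± 0.07). With water stress added it stayed at 73.8, 72.1 and 80.9 CPM (0.94 ± 0.07). In the other Cleopatra groups PYL8 ranged over 33.3 to 41.6 CPM, below both of these groups. In Carrizo it fell under WS (-0.72 ± 0.07) and rose by 0.24 ± 0.07 under HL+HS.

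PYL9 and PYL8-like were the receptors that rose under WS+HS in both genotypes. PYL9 rose by 0.71 ± 0.06 in Carrizo, where its libraries stood at 79.9, 72.4 and 74.2 CPM in CT and 124, 122 and 123 under WS+HS, and by 0.78 ± 0.06 in Cleopatra. PYL8-like (LOC102613559) rose by 0.70 ± 0.09 and 0.75 ± 0.09, and in Cleopatra was highest under WS+HL+HS, at 119, 95.5 and 107 CPM, and HL+HS, at 97.7, 105 and 113, which overlapped. PYL2 varied widely between the CT libraries of Carrizo, 0.757, 3.45 and 1.47 CPM, and its change under WS was -1.22 ± 0.48 there, a call that was lost without CT replicate 2 (-0.47), WS replicate 1 or WS replicate 3, and whose value was -2.09 over the libraries without the bis mark. The other two receptors were scarce. PYL2-like (LOC102619339) reached at most 0.407 CPM in any library, and in Carrizo it had 22 counts over the CT libraries and 0 under WS+HL and WS+HL+HS, at least 6.83-fold and 7.35-fold lower with 3 counts over a group as the floor. A second PYL4 (LOC102611406) had 2 counts under HS, 2 under WS+HL and 0 in the other Carrizo groups. In Cleopatra it ranged over 0 to 3.61 CPM and was highest under HL+HS and WS+HL+HS, with changes of 2.36 ± 0.61 and 2.40 ± 0.61. All reads were aligned to sweet orange gene models, and whether reads of each genotype align to them equally well was not tested.

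Most group A phosphatases rose under water stress, and most also rose under HL+HS. Under WS, 8 of the 9 rose and 1 fell in Carrizo, where 29.5% of all genes rose, and 9 of 9 rose in Cleopatra, where 31.2% did. Their median log2 change was 3.02 in Carrizo and 3.55 in Cleopatra, beside -0.08 and 0.00 over all genes. PP2C 24, the number of HAI3 in Arabidopsis, was the most abundant of all members in WS of Carrizo with 998 ± 51.7 TPM. It rose in 13 of the 14 comparisons, and with HL+HS, which holds no water stress, it still rose by 2.1 ± 0.08 in Carrizo and 2.37 ± 0.08 in Cleopatra.

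PP2C 77, the number of ABI2, stood at 18.7, 21 and 13.5 CPM in CT of Carrizo and 445, 427 and 442 under WS. In Cleopatra it stood at 24.2, 23.5 and 18.5 and 257, 269 and 276. Neither pair of groups overlapped, and the changes were 4.63 ± 0.13 in Carrizo (adjusted p = 6.9e-29) and 3.60 ± 0.13 in Cleopatra (adjusted p = 4.2e-26). PP2C 56-like, the number of ABI1, rose from 18.7, 17.6 and 15.3 to 197, 210.3 and 199 CPM in Cleopatra (3.55 ± 0.07), and by 3.02 ± 0.07 in Carrizo. PP2C 37, the number of PP2CA/AHG3, rose by 2.20 ± 0.08 and 1.76 ± 0.08. PP2C 16 moved least among the risers, by 0.52 ± 0.06 in Carrizo and 0.21 ± 0.06 in Cleopatra.

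PP2C 75 is the number of AHG1, which in Arabidopsis is known from seeds, and 2 genes carried it here. LOC102629241 was at most 0.238 CPM in the Carrizo libraries without water stress and rose to 12.9, 13.4 and 15.4 CPM under WS. In Cleopatra its WS libraries stood at 13, 14.7 and 14.8 CPM, against 0.127, 0 and 0.193 in CT. With heat added to water stress it was lower in both genotypes, at 1.71, 1.44 and 1.35 CPM in Carrizo and 1.04, 2.41 and 1.68 in Cleopatra. All 3 HS libraries of Carrizo had 0 counts, at least 8.07-fold below CT, which held 21 counts over its 3 libraries. The median over all Carrizo libraries without water stress was also 0 CPM. The second gene, LOC102630401, rose from 4.77, 4.79 and 4.45 to 89.9, 83 and 80.4 CPM under WS in Cleopatra (4.17 ± 0.11) and by 3.79 ± 0.11 in Carrizo. Reads shared between genes of the same name could be split between them, since no source used here says how multiply aligned reads were handled.

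PP2C 78 and PP2C 3 departed from the pattern. PP2C 78, the number of HAI1, was highest under WS+HS, at 31.3, 28.6 and 27.6 CPM in Carrizo and 47.7, 46.5 and 49.4 in Cleopatra, against 17.8, 17.9 and 18 and 19.8, 17.6 and 17.9 under WS alone. Its change under WS+HS was 1.68 ± 0.08 in Carrizo and 2.26 ± 0.08 in Cleopatra, and it rose in 13 of the 14 comparisons. PP2C 3, the number of HAI2, was the group A member that fell under WS in Carrizo (-0.46 ± 0.12), and it fell in each Carrizo group with water stress. In Cleopatra its change under WS was 0.31 ± 0.13, a rise (adjusted p = 0.036) that was lost without any 1 of CT replicates 2 and 3 and WS replicates 1 and 2 (0.23 to 0.31).

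**Figure D2:**
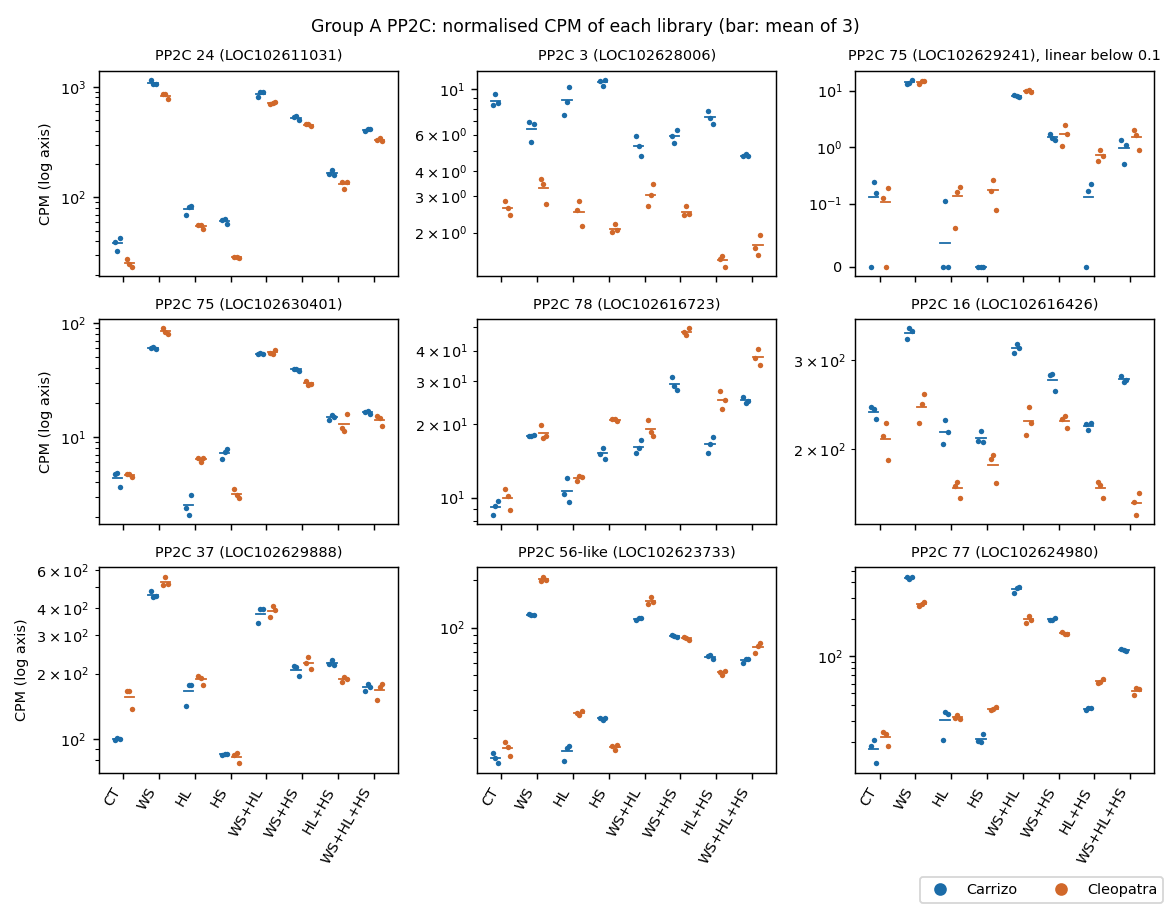
Normalised CPM (log axis; for PP2C 75 LOC102629241 linear below 0.1) of the 9 group A phosphatases in each library, by treatment, with Carrizo in blue and Cleopatra in orange and a bar at the mean of 3. PP2C 24, 77, 56-like and 37 and both PP2C 75 genes are highest under WS and next under WS+HL, whereas PP2C 78 is highest under WS+HS.

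Under heat alone the group A genes moved in both directions. In Carrizo 5 of 9 rose and 3 fell, beside 32.3% and 26.3% of all genes, and in Cleopatra 2 rose and 4 fell, beside 27.1% and 27.4%. PP2C 37 fell in both (-0.23 ± 0.08 and -0.92 ± 0.08). Under HL, 3 of 9 rose and 1 fell in Carrizo, beside 9.69% and 8.77% of all genes, and 6 of 9 rose and 1 fell in Cleopatra, beside 17.7% and 18%. PP2C 24 rose in each (1.02 ± 0.08 and 1.10 ± 0.08). Under HL+HS, 6 of 9 rose and 0 fell in Carrizo, beside 29.5% and 31.4% of all genes, with a median change of 1.09. In Cleopatra 7 of 9 rose and 2 fell, beside 35.5% and 31.5%, with a median of 1.47. The medians over all genes under HL+HS were 0 and 0.02. With all 3 stresses 8 of 9 rose and 1 fell in Carrizo, beside 32.5% and 38.7% of all genes, with a median change of 1.91 against -0.07 over all genes. In Cleopatra 6 of 9 rose and 2 fell, beside 37.5% and 35.1%, with a median of 1.59 against 0.00. These medians stood below those under WS alone in both genotypes.

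Summed TPM of group A phosphatases divided by that of receptors was 1.44 ± 0.054 in CT of Carrizo and 1.39 ± 0.25 in CT of Cleopatra (mean ± SD, n = 3). It reached 10.1 ± 0.62 and 7.73 ± 0.37 under WS, and 7.84 ± 0.49 and 5.88 ± 0.27 under WS+HL. With heat in the mix the ratio was 3.82 ± 0.16 and 3.16 ± 0.11 under WS+HS, and 3.43 ± 0.097 and 1.84 ± 0.19 under WS+HL+HS. Both terms moved: group A phosphatases held 2118 ± 69.2 TPM under WS and 1178 ± 49.5 under WS+HS in Carrizo, while receptors held 209 ± 5.88 and 309 ± 1.78. The ratio under HL+HS in Cleopatra, 1.35 ± 0.051, lay within the range of its CT libraries. Under HL alone it was 1.83 ± 0.22 and 1.71 ± 0.062, and under HS alone 1.41 ± 0.073 and 1.14 ± 0.077. In Carrizo the libraries of every stress group but HS lay above all CT libraries, HL included, and those of HS overlapped CT. In Cleopatra the same held for HL and the 4 groups with water stress, and HS overlapped CT. Under HL in Cleopatra group A phosphatases held 293 ± 12.7 TPM, beside 297 ± 45 in CT. Receptors held 172 ± 2.21 TPM there, beside 215 ± 6.22 in CT, though 0 of the 8 passed by edgeR. These are transcript sums, not protein amounts. They are TPM without the TMM scaling used for CPM and the tests, so sums and calls can differ between groups.

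**Figure D3:**
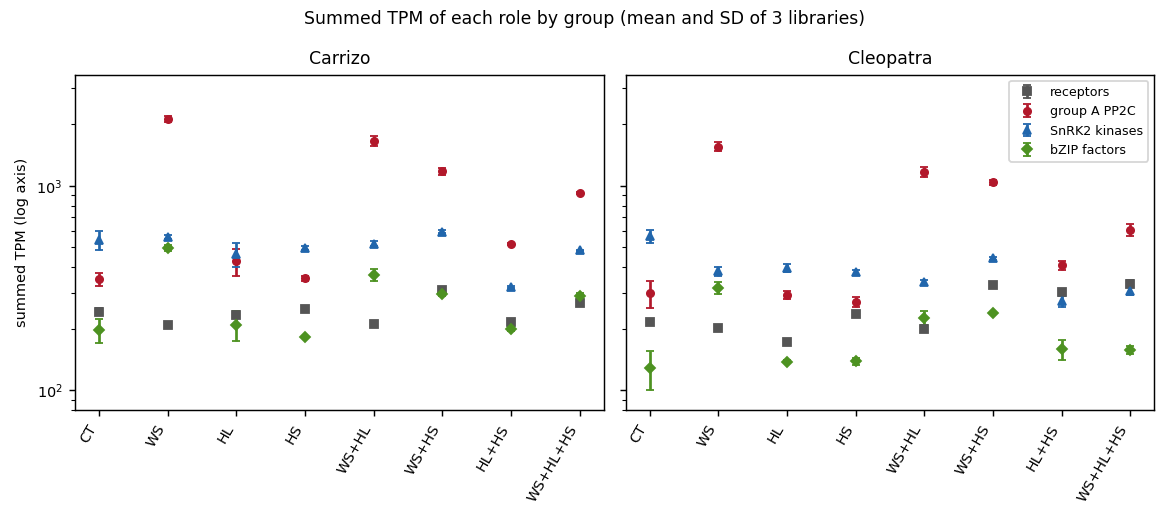
Summed TPM (log axis, without TMM scaling) of receptors, group A PP2C, SnRK2 kinases and bZIP factors in each group, as mean and SD of 3 libraries. Group A PP2C (red circles) reaches 2118 TPM under WS in Carrizo and 1554 in Cleopatra, while the receptors (grey squares) stay between 172 and 332 TPM.

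SnRK2 kinases moved in both directions, and 1 fell in every comparison. SAPK2 (LOC102623202) was at 308, 322 and 302 CPM in CT of Cleopatra, 61.8, 58.5 and 63 under WS, 87, 92 and 88.5 under HS and 17.4, 21.1 and 27.9 with all 3 stresses. In Carrizo the same groups stood at 166, 190.3 and 161, 53.5, 55.7 and 56.9, 45.8, 45.7 and 47.2 and 26.2, 25.6 and 24.7 CPM. CT was the highest group in both genotypes and HL the second highest. This kinase fell in all 14 comparisons, from -0.48 ± 0.09 under HL to -3.81 ± 0.11 under WS+HL+HS, both in Cleopatra. A second gene named SAPK2 (LOC102622831) differed between genotypes under HL+HS, with -1.08 ± 0.08 in Carrizo and 0.32 ± 0.08 in Cleopatra.

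SAPK3 rose in 7 of the 8 comparisons with water stress and fell in all 6 without it, those of HL alone included. Its Carrizo libraries stood at 17, 12.4 and 19 CPM in CT, 109, 112 and 111 under WS, 5.09, 4.39 and 3.19 under HS and 73.3, 71.4 and 75.7 under both. The changes were 2.77 ± 0.12, -1.93 ± 0.13 and 2.18 ± 0.12. In Cleopatra under WS it rose by 1.08 ± 0.12 and under HS it fell by 2.15 ± 0.13, and under WS+HL+HS its change was -0.07 ± 0.12, which did not pass (adjusted p = 0.637).

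SRK2E is the Arabidopsis name of OST1, the kinase of stomatal closure there, and here its changes under HS were larger than those under WS. In Carrizo it stood at 43.6, 51.7 and 39.3 CPM in CT, 52.1, 53.8 and 52.4 under WS and 137, 128 and 129 under HS. All Carrizo libraries with heat ranged over 100.2 to 157 CPM and all those without it over 39.3 to 69.8. The HS change was 1.55 ± 0.07 in Carrizo and 0.69 ± 0.07 in Cleopatra. Under WS it rose by 0.24 ± 0.07 in Carrizo and fell (-0.25 ± 0.07) in Cleopatra, and the former did not pass without CT replicate 3 (0.15) or with only the libraries without the bis mark (0.04). SRK2A rose in 12 of the 14 comparisons, by 1.27 ± 0.08 and 1.25 ± 0.08 under WS. SRK2I rose by 0.71 ± 0.07 under HS in Carrizo, and SRK2G-like fell by up to 1.38 ± 0.08, under WS+HL+HS in Cleopatra.

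**Figure D4:**
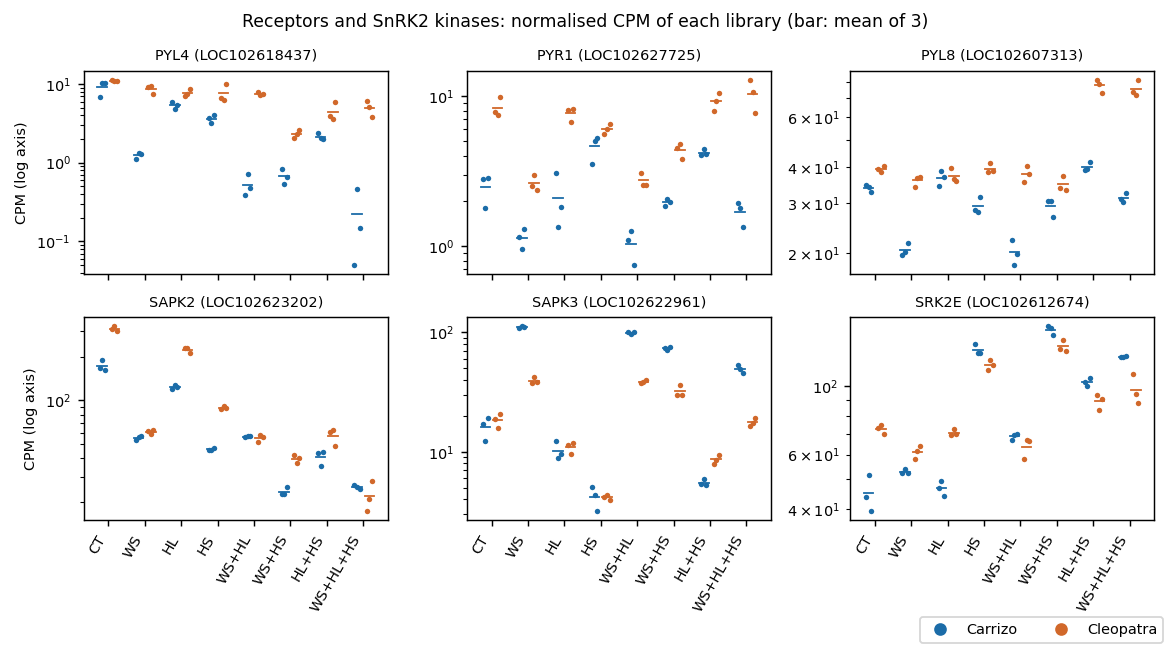
Normalised CPM (log axis) of 3 receptors and 3 SnRK2 kinases in each library, by treatment, with Carrizo in blue, Cleopatra in orange and a bar at the mean of 3. PYL4 (LOC102618437) in Carrizo separates from Cleopatra in the groups with water stress, SAPK2 (LOC102623202) is highest in CT, and SRK2E is high in the groups with heat.

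The bZIP factors were led by ABI5-like 5, which is ABF2/AREB1 by its Arabidopsis name, a main activator of ABA-responsive genes in leaves. It stood at 151, 163 and 133 CPM in CT of Carrizo and 531, 497 and 528 under WS (1.80 ± 0.10), and rose by 1.74 ± 0.10 in Cleopatra. Under HS it fell (-0.49 ± 0.10 and -0.33 ± 0.10), in Cleopatra not without CT replicate 2 (-0.19). ABI5 itself, best known from germination, was scarce, at 3.57, 3.51 and 2.85 CPM under WS in Carrizo and 1.18, 1.59 and 0.967 in CT (1.41 ± 0.56), and it rose by 1.77 ± 0.64 in Cleopatra. These calls were lost without any 1 of CT replicates 1 and 3 and WS replicates 1 and 2 in Carrizo (1.26 to 1.38), there also with the bis mark as a term (0.92), and without CT replicate 1 in Cleopatra (1.58). ABI5-like 1 had 0 counts in the 6 CT libraries. It had 61 counts over the 3 WS libraries of Carrizo, at least 20.2-fold above the floor of 3 counts. Without water stress it had 75 counts under HS in Carrizo, at least 21.7-fold above that floor. Over the WS+HL+HS libraries of Cleopatra it had 76 counts, at least 29.2-fold above it. It had 0 counts under WS+HL+HS in Carrizo and under WS+HS, HL and HS in Cleopatra.

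The name ABI5-like 2, the number of AREB3, is shared by 4 genes, and they did not move alike. LOC102618880 rose in 13 of the 14 comparisons, most under WS+HS (0.99 ± 0.05 and 0.97 ± 0.05). LOC102629355 stood out under HL in Cleopatra, at 32.6, 32.9 and 33.8 CPM against 11.4, 13.9 and 12.1 in CT (1.41 ± 0.08), while in Carrizo it stood at 17.1, 14.1 and 15.3 and 15.7, 15 and 14. LOC102608145 was lower with water stress: all 12 libraries with it lay below the 12 without it in each genotype. It was listed at 0 in all 3 WS+HL+HS libraries of Carrizo, at least 137-fold below CT, and in all 3 WS+HL libraries of Cleopatra, at least 32.5-fold below CT. LOC102622447 fell under WS in Carrizo from 1.61, 1.01 and 0.915 to 0.106, 0.0886 and 0.137 CPM.

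Among the 55 other PP2C genes that were tested, 47 rose and 48 fell in at least 1 of the 14 comparisons, and 40 did both, beside 77%, 76.8% and 56.6% of all genes. Under WS, 31 rose and 15 fell in Carrizo, beside 29.5% and 35.3% of all genes, and 29 rose and 12 fell in Cleopatra, beside 31.2% and 33.4%. Their median change was 0.27 and 0.26, against -0.08 and 0.00 over all genes. Under HS, 16 rose and 26 fell in Carrizo, beside 32.3% and 26.3% of all genes, and 10 rose and 22 fell in Cleopatra, beside 27.1% and 27.4%, with medians of -0.21 and -0.19 beside 0.06 and 0.00 over all genes.

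PP2C 51 (LOC102621444) had the largest rise under WS in both genotypes among the other PP2C genes with a mean of at least 1 on the log2 CPM scale, and its change was of the size seen in group A. It stood at 39.1, 41.6 and 34.9 CPM in CT of Carrizo and 710.0, 605 and 647 under WS (4.08 ± 0.11). In Cleopatra it stood at 66.3, 68.7 and 65.8 and 894, 776 and 784 (3.61 ± 0.10), and with 760.1 ± 48.3 TPM it was the most abundant member in WS of Cleopatra. A group A phosphatase of rice also carries the number 51, and whether this gene is one was not tested. PP2C 76 rose by 2.57 ± 0.06 and 2.74 ± 0.06 under WS, and PP2C 2 (LOC102619858) by 2.51 ± 0.09 and 3.09 ± 0.09. PP2C 13 rose by 2.58 ± 0.06 with all 3 stresses in Cleopatra and by 1.25 ± 0.06 in Carrizo.

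The falls included phosphatases that act in chloroplasts. PP2C 57 is the number of TAP38/PPH1, which dephosphorylates light-harvesting proteins in Arabidopsis, and PP2C 26 that of PBCP, which acts on photosystem II core proteins. PP2C 57 went from 144, 148 and 163 to 44.5, 46.6 and 47 CPM under WS in Cleopatra (-1.72 ± 0.08) and fell by 0.85 ± 0.08 in Carrizo. PP2C 26 changed by -1.43 ± 0.09 in Carrizo and -2.19 ± 0.10 in Cleopatra. The 17 mesophyll genes moved alongside under WS: their summed CPM was 7352 to 8149.8 in Carrizo and 5189 to 5416 in Cleopatra. Under HS in Carrizo they did not: PP2C 57 fell by 1.27 ± 0.08, while the 17 genes summed to 44737.5 to 50490 CPM, above their CT range. Their part in these falls was not tested. PP2C 42 fell in 13 of the 14 comparisons, most under WS+HL in Cleopatra (-2.09 ± 0.09), and PP2C 40 fell by 1.94 ± 0.13 under HS in Carrizo. PP2C 38 (LOC102610291), whose Arabidopsis namesake acts on the immune kinase BIK1, fell by 1.83 ± 0.22 under WS in Carrizo, where its libraries went from 4.41, 3.53 and 5.06 to 1.49, 1.24 and 0.922 CPM, and changed by -0.86 ± 0.21 in Cleopatra. The other gene named PP2C 38, LOC102608068, named here after its values were seen, moved the other way: it rose by 0.32 ± 0.08 under WS in Carrizo and 0.44 ± 0.08 in Cleopatra, and over the libraries without the bis mark the former, 0.19, did not pass. It rose in 10 of the 14 comparisons, among them all 8 with water stress, and fell in none. PP2C 27 (LOC102624971) rose in all 14 comparisons, between 0.23 and 1.37.

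PP2C 68, for which rice names a group A gene as well, stood at 14.6, 23.1 and 16.5 CPM in CT and 37.1, 33.5 and 35.4 with all 3 stresses in Carrizo, and at 18.5, 19.9 and 10.9 and 7.54, 8.85 and 5.66 in Cleopatra. It thus rose in Carrizo (0.97 ± 0.15) and fell in Cleopatra (-1.16 ± 0.16). The 2 genes named PP2C 34 moved in opposite directions under WS. LOC102626354 stood at 28, 25.8 and 27.2 CPM in CT of Cleopatra and 7.87, 8.88 and 9.09 under WS, and LOC102607417 at 103, 101 and 123 and 148, 150.4 and 163. Their WS changes were -1.65 ± 0.13 and 0.50 ± 0.07 in Cleopatra, and -0.88 ± 0.12 and 1.47 ± 0.07 in Carrizo. A second PP2C 2 (LOC102625197) changed by 0.97 ± 0.13 in Carrizo and 1.46 ± 0.13 in Cleopatra under WS. A second PP2C 51 (LOC102621785) changed by 1.21 ± 0.14 and 1.05 ± 0.14 under WS.

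In some stress group, 3 other PP2C genes were at 0 counts in all 3 libraries. PP2C 72 (LOC102612161) had 288 counts over the CT libraries of Carrizo and 0 under WS+HS and WS+HL+HS, at least 109-fold and 96.2-fold lower. In Cleopatra it was also at 0 under WS+HL and WS+HS, at least 18.8-fold and 24-fold below CT. PP2C 11 (LOC102607450) had 25 counts over the CT libraries of Cleopatra and 0 under WS, HL, HS and WS+HL. PP2C 65 (LOC102607746) had 0 counts in CT of Cleopatra and at most 24 counts in any of its stress groups. How the counts were taken from the alignments is not stated beyond the tools named, so a listed 0 may also be a failed estimate.

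**Figure D5:**
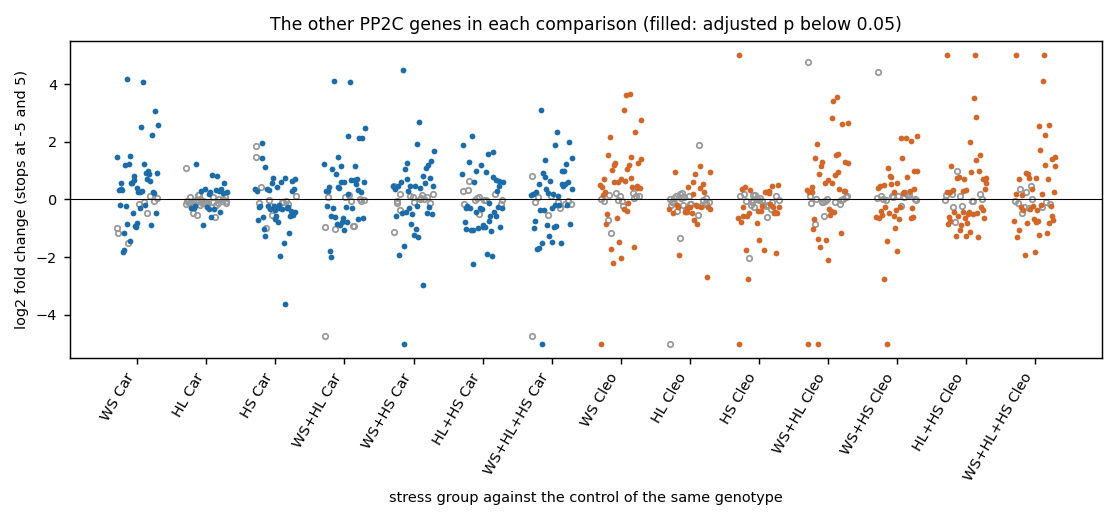
Log2 fold change (drawn values stop at -5 and 5) of the 55 other PP2C genes in the 14 comparisons of a stress with CT, 1 point per gene, filled where the adjusted p was below 0.05. Points spread upwards in the columns with water stress and narrow under HL in Carrizo; points at the limits belong to genes at or near 0 counts in a group.

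Combined stresses were compared with the sum of the single-stress changes on the log2 scale, so a departure of 0 means that the log2 changes add. For WS+HS, 16 of the 86 members lay above the sum and 27 below, beside 18.5% and 18.6% of all genes (37.1% in all) in Carrizo, and 19 of the 86 members lay above the sum and 25 below, beside 19.7% and 17.6% of all genes (37.3% in all) in Cleopatra. Of group A phosphatases, 0 of the 9 lay above and 5 below in Carrizo and 1 of the 9 lay above and 6 below in Cleopatra, with medians of -0.91 and -0.96. PP2C 24 stood at 1152, 1049 and 1059.6 CPM under WS, 62.1, 63.6 and 57.2 under HS and 532, 542 and 497 under both in Carrizo, a departure of -1.71 ± 0.11. PP2C 77 departed by -1.40 ± 0.16 in Carrizo and -1.55 ± 0.16 in Cleopatra. SAPK3 lay above the sum, by 1.34 ± 0.17 and 1.85 ± 0.18.

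For WS+HL, 12 of the 86 members lay above the sum and 16 below, beside 8.65% and 9.48% of all genes (18.1% in all) in Carrizo (4 and 11 with only the libraries of its 4 groups in the fit), and 8 of the 86 members lay above the sum and 17 below, beside 12.3% and 12.9% of all genes (25.2% in all) in Cleopatra. The share of all genes in the fit on 4 groups is not given here. PP2C 24 lay below the sum by a like amount in each genotype, -1.34 ± 0.11 and -1.33 ± 0.11. PP2C 56-like departed by -1.19 ± 0.09 in Cleopatra and by -0.22 ± 0.09 in Carrizo, where it did not pass (adjusted p = 0.083) but did without CT replicate 1 (-0.28) or HL replicate 1 (-0.32). PP2C 25, the number of AP2C1, a phosphatase of MAP kinases in Arabidopsis, departed in opposite directions, -1.52 ± 0.15 in Carrizo and 2.72 ± 0.16 in Cleopatra. No receptor departed under WS+HL in either genotype by edgeR. At an unadjusted p under 0.05, 3 did, with 8 receptors tested in each genotype. The share of all genes at that unadjusted threshold is not given here.

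For HL+HS, 22 of the 86 members lay above the sum and 17 below, beside 12% and 15.8% of all genes (27.8% in all) in Carrizo, and 41 of the 86 members lay above the sum and 14 below, beside 25.3% and 24.7% of all genes (50% in all) in Cleopatra. None of the 4 groups of this contrast had water stress. Of group A phosphatases, 5 of the 9 lay above and 1 below in Carrizo and 4 of the 9 lay above and 0 below in Cleopatra. PP2C 75 (LOC102630401) stood at 2.41, 2.07 and 3.11 CPM under HL, 6.49, 7.36 and 7.91 under HS and 14, 15.8 and 15 under both in Carrizo, a departure of 1.83 ± 0.16. PP2C 25 in Cleopatra stood at 20.7, 15.7 and 15.4 CPM in CT, 2.59, 2.48 and 3.07 under HL, 4.91, 4.6 and 4.83 under HS and 32, 27.9 and 24.3 under both. It was below CT under each single stress and above CT under the pair, a departure of 5.23 ± 0.17. PP2C 51 (LOC102621444) departed by 1.81 ± 0.14 in Cleopatra, and PYL8 by 1.05 ± 0.10.

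Between the genotypes without stress, 23 members were higher in Cleopatra and 35 were lower, beside 33% and 34.4% of all genes (67.4% in all). PYR1 was higher in Cleopatra by 1.75 ± 0.21 and SAPK2 (LOC102623202) by 0.85 ± 0.09, while the difference was -1.73 ± 0.13 for PP2C 3 and -1.78 ± 0.12 for PP2C 34 (LOC102626354). Of the 7 bZIP factors, 5 were lower in Cleopatra and 0 were higher. A level difference between genotypes can include unequal alignment to the sweet orange models, which was not tested.

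The genotype difference of a response was tested as the change in Cleopatra minus the change in Carrizo. The members with a higher and a lower change in Cleopatra, with the shares of all genes (higher, lower and either) in brackets, numbered 24 and 24 for WS (17.8%, 18.3% and 36.1%), 7 and 5 for HL (7.77%, 7.66% and 15.4%) and 19 and 31 for HS (20.2%, 23.5% and 43.7%). For the combinations they numbered 22 and 26 for WS+HL (19%, 21% and 40%), 18 and 24 for WS+HS (20.5%, 21.2% and 41.7%), 34 and 24 for HL+HS (26.5%, 23.5% and 50.1%) and 29 and 31 for WS+HL+HS (29.1%, 27.3% and 56.4%). The count for HL, 12 in all, was 21 without CT replicate 2 of Carrizo and 28 without HL replicate 1 of Carrizo. Shares of all genes without these libraries are not given here. In 44 cases, over 30 members, a member passed in opposite directions in Carrizo and Cleopatra under 1 treatment and the difference itself passed: 12 under WS+HL+HS, 10 under HS, 9 under HL+HS, 5 under WS, 3 under HL, 3 under WS+HS and 2 under WS+HL. Of all genes, 10.8%, 8.2%, 8.76%, 4%, 1.03%, 5.5% and 4.52% met the same condition under these treatments in turn. The cases made up 7.31% of the 602 pairs of a member and a treatment, beside 6.11% over all genes, and the members with such a case 34.9%, beside 27.2%.

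PYL4 (LOC102618437) differed most among the receptors, by 2.51 ± 0.33 under WS and 4.21 ± 0.39 under WS+HL+HS, with the steeper fall in Carrizo. Among the kinases SAPK3 differed by -1.69 ± 0.17 under WS, with the larger rise in Carrizo. PP2C 77 likewise rose more in Carrizo under WS (-1.03 ± 0.16) and under WS+HL+HS (-1.42 ± 0.17), whereas PP2C 56-like rose more in Cleopatra under WS (0.54 ± 0.09). The difference for PP2C 24 under WS was 0.21 ± 0.11, which did not pass (adjusted p = 0.128) but did without CT replicate 2 of Carrizo (0.31). Under HS, PP2C 51 (LOC102621444) stood at 61.9, 54.3 and 57.7 CPM in Carrizo and 20.1, 19.3 and 20.8 in Cleopatra, above CT in the former and below it in the latter, a difference of -2.33 ± 0.14.

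PP2C 25 moved apart under HL, from 10.9, 8.34 and 9.36 to 14.9, 12.5 and 15.2 CPM in Carrizo and from 20.7, 15.7 and 15.4 to 2.59, 2.48 and 3.07 in Cleopatra. The HL changes were 0.58 ± 0.11 and -2.68 ± 0.12 and the difference was -3.26 ± 0.16. ABI5-like 2 (LOC102629355) differed by 1.35 ± 0.12 under HL. The next 2 genes were chosen after their values were seen. A PP2C-like protein 44 (LOC102624938) stood at 3.1, 2.66 and 2.61 CPM in CT and 0.843, 0.512 and 0.813 under HL+HS in Carrizo, and at 0.182, 0 and 0 and 5.29, 3.94 and 4.06 in Cleopatra. PP2C 8 (LOC102611972) reached 4.68, 5.53 and 5.57 CPM under WS+HS in Carrizo, from 0.111, 0.357 and 0.242 in CT, and stood at 0.24, 0.307 and 0.372 in Cleopatra.

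Other genes of the pathway were taken from lists by product name. Of 21 genes of ABA synthesis and breakdown, 7 rose and 10 fell under WS in Carrizo, beside 29.5% and 35.3% of all genes, and 8 rose and 9 fell in Cleopatra, beside 31.2% and 33.4%. An NCED gene, of the rate-limiting step of ABA synthesis, had the largest rise of the 21 under WS in both genotypes, 5.07 ± 0.14 and 5.30 ± 0.14. Under HS it fell by 3.10 ± 0.17 in Cleopatra, and in Carrizo its change of -0.05 ± 0.15 did not pass (adjusted p = 0.826). CYP707A3, an ABA 8'-hydroxylase that breaks the hormone down, rose in all 14 comparisons. In Carrizo it rose by 3.22 ± 0.11 under HS, the largest rise of the 21 there, and by 2.26 ± 0.10 under WS. Changes of the other genes on this list are not given singly. Of the 18 tested genes on the list of ABA targets and effectors, 8 rose and 5 fell under WS in Carrizo, and 10 rose and 4 fell in Cleopatra, beside the same shares. Low-temperature-induced 65 kDa protein, an ABA-induced protein, had the largest rise of the 18 under WS in both genotypes, 5.07 ± 0.09 and 4.14 ± 0.09. Under WS+HS it rose by 3.85 ± 0.09 and 2.63 ± 0.08.

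Water stress split the libraries of several members completely. In Carrizo, 21 of the 86 (24.4%) had all 12 libraries with water stress above all 12 without it, beside 7.51% of all genes, and 6 (6.98%) had all below, beside 9.67%. In Cleopatra 13 (15.1%) lay above, beside 4.2%, and 4 (4.65%) below, beside 4.06%. PP2C 24 lay above in both, at 400.1 to 1152 CPM against 33 to 175 in Carrizo, and so did SRK2A, PP2C 51 (LOC102621444), PP2C 76 and PP2C 75 (LOC102629241). The levels of other cell types were given by markers without a test: 5 guard cell genes summed to 51.5 to 151 CPM and 14 vascular genes to 86.4 to 458 CPM over the 48 libraries, and no gene of either list was at 0 throughout. Guard cell markers stood at 79.1 to 88 CPM in CT of Carrizo and 83.2 to 101 in CT of Cleopatra. In Cleopatra they were highest under WS, at 139 to 151 CPM, and WS+HL, at 148 to 151, and in Carrizo under WS+HS, at 107 to 109. They were lowest under HL+HS, at 55.4 to 57.1 CPM in Carrizo and 51.5 to 54.1 in Cleopatra. Vascular markers of 257 to 356 CPM in CT of Carrizo and 367 to 458 in CT of Cleopatra stood against 86.4 to 88 and 164 to 190.04 with all 3 stresses. The part of changed cell proportions in the results above was not tested.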

How the data were processed

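Leaf RNA of 48 libraries (16 groups of 3 biological replicates) was made into stranded mRNA libraries, per the labels' protocols. The authors' tools were FastQC 0.11.7, HISAT2 2.1.0 and StringTie 2.1.3b, per the submitters' processing notes, and the genes are those of the RefSeq sweet orange gene models Csi_valencia_1.0. The deposited table gives read counts per gene, which are not normalised and were used for every test. The deposited TPM values, scaled by gene length by the authors, were used for levels between genes and for sums over each role. Those sums were compared between groups without TMM scaling. The deposited FPKM values were not used. The strand setting and the handling of multiply aligned reads are not stated, so genes that share a name or overlap may share reads.

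Members and lists were chosen with earlier results of these data known. Of 88 members, 86 had an entry in the RefSeq gene table of assembly DVS_A1.0; protein sequences were not used here. Counts were fitted over all 48 libraries with edgeR 4.0.16 in R 4.3.3 (default expression filter, 23721 genes, TMM, 16 group means, robust quasi-likelihood, 32 residual degrees of freedom, biological coefficient of variation 11.2%), and p-values were adjusted by Benjamini-Hochberg over all genes in each of 28 comparisons. All receptors, group A phosphatases, kinases and bZIP factors could be named. Other PP2C genes could be named where they were among the 3 largest rises or falls of a comparison at a mean log2 CPM of at least 1, or had no count in a stress group; values in further comparisons were then given too. The ABA synthesis list is given without 11 aldehyde oxidase GLOX genes that matched its words. Depth was 40294831 to 58392998 counts, and floors cover counting error only. Scripts were tested on simulated data. Alternatives were DESeq2 1.42.0, its size factors, no filter, a replicate term, the bis mark as a term or as an exclusion, fits on the compared groups only, and each library left out.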

Additional observations from a re-analysis of the deposited data

Results flagged for a closer look

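The responses of Carrizo and Cleopatra differed by the test of the difference itself (edgeR's quasi-likelihood test, adjusted p below 0.05 over all genes) for 48 of the 86 members under WS (36.1% of all genes), 12 under HL (15.4%), 50 under HS (43.7%), 48 under WS+HL (40%), 42 under WS+HS (41.7%), 58 under HL+HS (50.1%) and 60 under WS+HL+HS (56.4%). The HL count was 21 without CT replicate 2 of Carrizo and 28 without HL replicate 1 of Carrizo. Shares of all genes without these libraries are not given here. Of the members named for such a difference, given as the log2 change in Cleopatra minus that in Carrizo, the receptor PYL4 (LOC102618437) differed by 2.51 under WS and 4.21 under WS+HL+HS. The kinase SAPK3 differed by -1.69 under WS. Among group A phosphatases PP2C 77 differed by -1.03 under WS and -1.42 under WS+HL+HS, and PP2C 56-like by 0.54 under WS. PP2C 51 (LOC102621444) differed by -2.33 under HS and PP2C 25 by -3.26 under HL. The bZIP factor ABI5-like 2 (LOC102629355) differed by 1.35 under HL.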

How the results depend on the processing

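The number of members called stayed within 1.5 times its value in all 28 comparisons with DESeq2, with its size factors, without the filter, with the replicate block and with the bis mark as a term, and in the 24 comparisons that could be run on libraries without the mark (HS of Carrizo has none, so 4 were not run). The exceptions came from the other alternatives. Fitted on the compared groups alone, 5 members were called for HL in Carrizo in place of 30, and 15 in place of 28 for the departure of WS+HL in Carrizo. The other 26 comparisons, fitted in the same way, stayed within 1.5 times their value. Shares of all genes under the alternatives are not given here, so these 2 drops are not read as particular to the members. The cause of the drops was not tested. Leaving out 1 library moved the genotype difference of HL over 11 to 28. DESeq2 put 13 members above and 15 below the sum for WS+HL in Cleopatra, in place of 8 and 17. Of single values, the genotype difference of PP2C 24 under WS, which was not called, was -0.062 without marked libraries, and the SAPK3 change under WS+HL+HS in Cleopatra, also not called, ranged over -0.17 to 0.020 with 1 library left out; the cause was not tested. Fits with a library left out kept the gene filter and the dispersion trend of all 48. Replicate numbers are not shown to pair samples. Same-numbered samples of compared groups had residual correlations of -0.160 to 0.157, above 0.1 in 5 of 45 pairs. Of the 48 libraries, 23 correlated best with their own number among the 3. These values do not settle whether samples are paired. With the replicate block 72 members were called under WS in Carrizo, as without it, and 29 under HL in Carrizo; among the named values the PYR1 call under HS in Cleopatra was lost. Depth limits genes with few counts, such as ABI5-like 1, PYL2-like and PP2C 11, whose fitted changes are not printed.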
